A study of Saccharomyces cerevisiae with 16 samples.

Results

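The comparison set 3 RNA sequencing libraries taken 90, 105 and 120 min after budding yeast (Saccharomyces cerevisiae) was moved into medium without phosphate against the 3 taken at 45, 60 and 75 min. These 6 libraries were chosen by their time labels out of the 16 of a starvation time course, which held 1 library at 0 min in high phosphate medium and 1 every 15 min up to 225 min. The strain is labelled pho84pr-YFP, delta-phm4 in the BY4741 background in all 16 libraries, so by the labels every group compared carries the same deletion and the same fluorescent reporter under the PHO84 promoter. BY4741 is a haploid laboratory strain. PHM4 is another name of VTC1, which encodes part of the polyphosphate polymerase of the vacuole membrane, and no strain with this gene intact is compared. Of 6648 named genes in the deposited table, 5000 had a value in all 6 libraries and were tested, 606 had a value in some of them and 1042 in none. The successive libraries of one time course stand as 3 replicates a side. The p-values therefore measure the scatter within the 2 windows, part of which is change over time, and not the scatter between cultures.

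Yeast short of phosphate switches on the PHO regulon through the transcription factor Pho4, which supplies phosphatases, transporters and polyphosphate enzymes. Cells that slow their growth also follow a general programme: genes for making ribosomes are turned down, and stress genes under Msn2 and Msn4, many of which carry the stress response element, are turned up. Ribosome biogenesis genes carry elements named PAC and RRPE, ribosomal protein genes are bound by Rap1, chaperone genes by Hsf1, and proteasome genes share a site for Rpn4 named PACE.

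The upstream sequences of the 3 genes with the largest rise, the 3 with the largest fall and of PHO84, the gene whose promoter drives the reporter, show these elements side by side. Sequences are from the RefSeq genome of build R64, the build of the submitters' alignment, on the strand of the gene, and each is up to 300 bases long and ends 100 bases before the start codon. They were shortened to keep 150 bases clear of the stop codon of an upstream gene on the same strand and 100 bases clear of a divergent start codon. Capitals mark the cores of PAC (GATGAG), RRPE (AAAATTTT), the stress response element (AGGGG) and the lower affinity Pho4 site (CACGTT), on either strand. The windows are chrXIV:359196-359495 (forward strand) for AAH1, chrVII:807757-808056 (reverse) for NSR1, chrXI:176582-176680 (forward) for LTV1, chrXII:783488-783787 (reverse) for TMA10, chrX:113434-113727 (reverse) for YJL163C, chrVIII:280543-280719 (forward) for RTC3 and chrXIII:25901-26200 (reverse) for PHO84. The PHO84 window was not shortened and overlaps the annotated gene YML122C and an annotated noncoding RNA gene.
AAH1: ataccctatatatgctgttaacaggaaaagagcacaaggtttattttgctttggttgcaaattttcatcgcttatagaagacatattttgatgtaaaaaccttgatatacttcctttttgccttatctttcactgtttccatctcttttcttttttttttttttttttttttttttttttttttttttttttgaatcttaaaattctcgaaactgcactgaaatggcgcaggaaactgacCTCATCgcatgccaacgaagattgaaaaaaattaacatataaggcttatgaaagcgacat
NSR1: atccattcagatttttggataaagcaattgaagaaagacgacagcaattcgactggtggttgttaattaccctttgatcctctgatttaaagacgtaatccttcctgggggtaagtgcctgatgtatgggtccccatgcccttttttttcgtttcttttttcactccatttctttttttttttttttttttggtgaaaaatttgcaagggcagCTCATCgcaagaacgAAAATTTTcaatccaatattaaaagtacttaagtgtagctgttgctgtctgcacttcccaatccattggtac
LTV1: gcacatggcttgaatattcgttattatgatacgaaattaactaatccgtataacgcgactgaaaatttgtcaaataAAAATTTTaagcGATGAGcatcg
TMA10: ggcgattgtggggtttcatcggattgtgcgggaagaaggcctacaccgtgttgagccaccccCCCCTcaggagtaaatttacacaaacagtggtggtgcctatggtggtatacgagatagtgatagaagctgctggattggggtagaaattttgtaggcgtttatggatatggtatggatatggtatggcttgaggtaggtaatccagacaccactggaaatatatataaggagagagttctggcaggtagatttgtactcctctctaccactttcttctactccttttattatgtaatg
YJL163C: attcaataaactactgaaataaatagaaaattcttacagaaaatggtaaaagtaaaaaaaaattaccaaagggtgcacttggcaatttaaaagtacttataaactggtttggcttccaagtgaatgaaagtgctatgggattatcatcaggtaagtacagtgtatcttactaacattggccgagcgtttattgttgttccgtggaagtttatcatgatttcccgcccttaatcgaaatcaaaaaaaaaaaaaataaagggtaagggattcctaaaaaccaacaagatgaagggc
RTC3: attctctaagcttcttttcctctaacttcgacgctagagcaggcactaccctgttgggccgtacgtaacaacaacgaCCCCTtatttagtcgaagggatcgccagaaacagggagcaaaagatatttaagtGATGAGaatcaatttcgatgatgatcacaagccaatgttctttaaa
PHO84: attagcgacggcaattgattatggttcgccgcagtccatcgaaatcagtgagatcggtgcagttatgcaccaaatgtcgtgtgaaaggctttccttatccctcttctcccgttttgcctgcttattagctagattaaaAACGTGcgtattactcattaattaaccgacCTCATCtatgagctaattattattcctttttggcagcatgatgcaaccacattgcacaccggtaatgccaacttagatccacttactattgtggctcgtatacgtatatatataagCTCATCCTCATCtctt
All 3 genes that rose most hold a PAC core, and in NSR1 and LTV1 it lies a few bases from an RRPE core. TMA10 and RTC3, which fell, hold a stress element, and RTC3 holds a PAC core as well. YJL163C holds none of the 8 motifs searched. PHO84 holds 1 lower affinity Pho4 site in its window, and 3 PAC cores.

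Levels are deposited log2 CPM values, the log2 of counts per 1000000 reads in a library, and a difference is the mean at 90 to 120 min minus the mean at 45 to 75 min on that scale. Genes with an adjusted p under 0.05 by limma (Benjamini-Hochberg, over all 5000 genes) were called. In all, 453 genes (9.06% of those tested) were higher at 90 to 120 min and 507 (10.1%) were lower. By a rule with no variance model, 254 genes (5.08%) were at least 2-fold higher with no overlap between the windows and 160 (3.2%) at least 2-fold lower. At any size of difference, 659 of the 5000 had every later value above every earlier one, and 1073 had every later value below. The median difference over all genes was -0.08, with quartiles of -0.36 and 0.22. Ribosomal protein and ribosome biogenesis genes made up 225 of the 453 genes that rose. In these bulk samples fewer cells of a kind and less RNA per cell cannot be told apart, and CPM give each gene's share of its library, not an amount per cell.

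**Figure D1:**
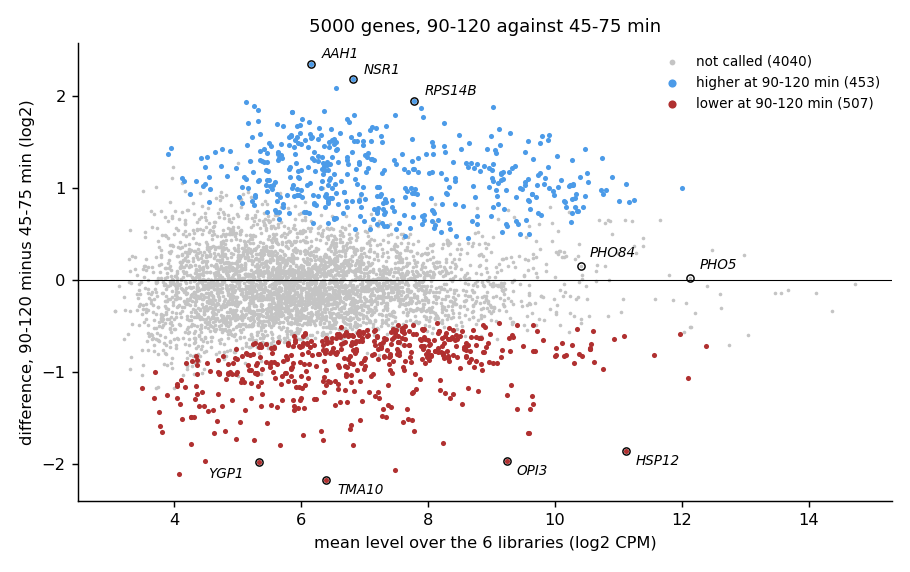
Difference between the windows (y axis, log2) against the mean level over the 6 libraries (x axis, log2 CPM) for 5000 genes, 1 point each. The 453 genes called higher are blue, the 507 called lower red, and PHO84 and PHO5 lie among the genes not called.

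These counts depend on which libraries give the scatter. A fit that also took in the windows of 15 to 30 and 135 to 180 min called 27 genes higher and 69 lower, all 96 of them also called from the 6 libraries. In the window of 135 to 180 min the ribosome biogenesis genes had a median SD of 0.80 and the general stress genes of 0.89, against 0.59 and 0.34 at 45 to 75 min. Without the 60 min library 194 genes were higher and 194 lower, and without the 105 min library 224 and 193. Without the 45 min library 324 were lower. No gene called from the 6 libraries had the opposite sign of difference in any of the 15 other fits. Those fits reuse all or most of the 6 libraries, which leaves little room for a change of sign.

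The libraries did not separate by window on every measure of likeness. Pearson's r over the 5000 genes ran from 0.95 to 0.98 within windows and from 0.89 to 0.95 between them, as a description, since genes are not independent replicates. The median absolute difference between libraries overlapped, at 0.22 to 0.31 log2 within windows and 0.30 to 0.44 between them: the 45 and 75 min libraries (0.31) lay further apart than those of 75 and 90 min or of 75 and 120 min (0.30 each). The deposited values end at a floor of 4.38 to 9.59 CPM in these 6 libraries. If that floor stands for 10 reads, an assumption, the libraries hold 1043131 to 2280486 reads, and a floor of another size scales these depths with it. VTC1, the locus of the labelled deletion, was listed in all 6 libraries, at 6.80, 7.42 and 7.10 log2 CPM at 45 to 75 min and 6.87, 7.08 and 7.31 at 90 to 120 min, against 6.67 at 0 min. What reads gave this signal was not tested, so the deletion rests on the label. The MATa markers, which BY4741 should express, were all listed (6 of 6, summed 4338 to 5499 CPM in the earlier and 3778 to 4176 in the later window). Of 4 MATalpha markers MFALPHA1 and MFALPHA2 were listed in no library, and the others summed to 41.2 to 65.2 and 31.0 to 41.2 CPM. Of 15 meiosis and sporulation markers 5 were listed in all 6 libraries and 5, among them IME1 and IME2, in none, with sums of 167.8 to 207.1 and 152.1 to 188.1 CPM, and none of the markers tested was called.

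Genes for building ribosomes rose together. Of 130 ribosome biogenesis genes tested, 115 rose (88.5%, beside 9.06% over all genes) and 0 fell. Their median difference was 1.31, or 2.48-fold, beside -0.08 over all genes. The median level of the group was 5.33, 5.49 and 6.42 log2 CPM at 45, 60 and 75 min and 7.29, 7.15 and 6.63 at 90, 105 and 120 min, so every later library lay above every earlier one. NSR1, a nucleolar protein of pre-rRNA processing, stood at 5.20, 5.11 and 6.86 and then at 8.51, 7.91 and 7.31 log2 CPM, a rise of 2.18 ± 0.40 (SE; limma adjusted p = 0.0028). LTV1, an assembly and export factor of the small subunit, stood at 4.93, 5.22 and 6.39 and then at 7.86, 7.70 and 7.24 log2 CPM, a rise of 2.08 ± 0.31 (adjusted p = 0.0014). In both genes the 75 min library was the highest of the earlier window and the 120 min library the lowest of the later one. UTP14, of the small subunit processome, rose by 1.94 ± 0.37 and DBP3, an RNA helicase of large subunit maturation, by 1.89 ± 0.44. ERB1, RRP12, SAS10 and RRP5, further factors of rRNA processing or subunit maturation, rose by 1.85, 1.84, 1.83 and 1.79, and CGR1, also of rRNA processing but in none of the lists, by 1.87. The count of 115 was 56 without the 60 min library, 75 without the 105 min library and 2 in the fit of 4 windows.

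RNA polymerases I and III, which transcribe ribosomal and transfer RNA genes, followed the same direction in part. The list held 33 tested genes for their subunits, their initiation factors and the regulator MAF1. Of these, 14 rose (42.4%, beside 9.06% over all genes), 0 fell, and the median difference was 0.70. RPA190, the largest subunit of polymerase I, stood at 5.95, 5.85 and 7.07 and then at 8.22, 8.15 and 7.49 log2 CPM, with no overlap, and rose by 1.67 ± 0.29 (limma adjusted p = 0.0024). RPA43, RPA135 and RPA49, also of polymerase I, rose by 1.6, 1.48 and 1.46, although the windows of RPA49 overlapped. Of these 14 calls, 9 remained in every omission of 1 library, with 9 calls without the 60 min library and 9 without the 105 min library, and the fit of 4 windows made 0. TRM1, which methylates tRNA and is in none of the groups, rose by 1.82 ± 0.28.

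Cytosolic ribosomal protein genes rose as a group too. Of 136 tested, 110 rose (80.9%, beside 9.06% over all genes) and 0 fell, with a median difference of 1.02, or 2.03-fold. Their median level was 9.45, 8.97 and 8.83 log2 CPM at 45, 60 and 75 min and 9.69, 10.28 and 10.17 at 90, 105 and 120 min. RPS14B, a protein of the small subunit, stood at 6.93, 6.56 and 6.91 and then at 8.45, 9.27 and 8.54 log2 CPM, with no overlap, and rose by 1.95 ± 0.21 (limma adjusted p = 0.00076). RPL31B, of the large subunit, stood at 8.27, 7.77 and 8.21 and then at 9.59, 10.31 and 10.01, a rise of 1.89 ± 0.20. RPL7B and RPS24B rose by 1.80 ± 0.20 and 1.78 ± 0.20. Most of these genes come as near-identical A and B copies, whose reads the authors' counting may have split. Summed over the 58 pairs with both copies tested, the median difference was 1.01, and 57 of 58 sums were higher at 90 to 120 min. In 43 of 58 pairs the copy with the lower mean level had the larger difference, with a median of 1.19 over the lower copies and 0.92 over the higher ones. The count of 110 was 60 without the 60 min library, 64 without the 105 min library and 12 in the fit of 4 windows.

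The 2 ribosome groups did not turn at the same library. From 60 to 75 min 126 of 130 ribosome biogenesis genes went up, by a median of 0.84, while 92 of 136 ribosomal protein genes went down, by a median of -0.18. From 75 to 90 min 129 of 130 and 134 of 136 went up, by medians of 0.93 and 0.92. From 90 to 105 min 96 of 130 biogenesis genes went down while 134 of 136 ribosomal protein genes went up by 0.61. The lowest of the 6 values fell at 45 min for 88 of 130 biogenesis genes and at 75 min for 90 of 136 ribosomal protein genes. The highest fell at 90 min for 96 of the former and at 105 min for 86 of the latter. Each step compares 2 single libraries, so these counts have no replicate check.

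**Figure D2:**
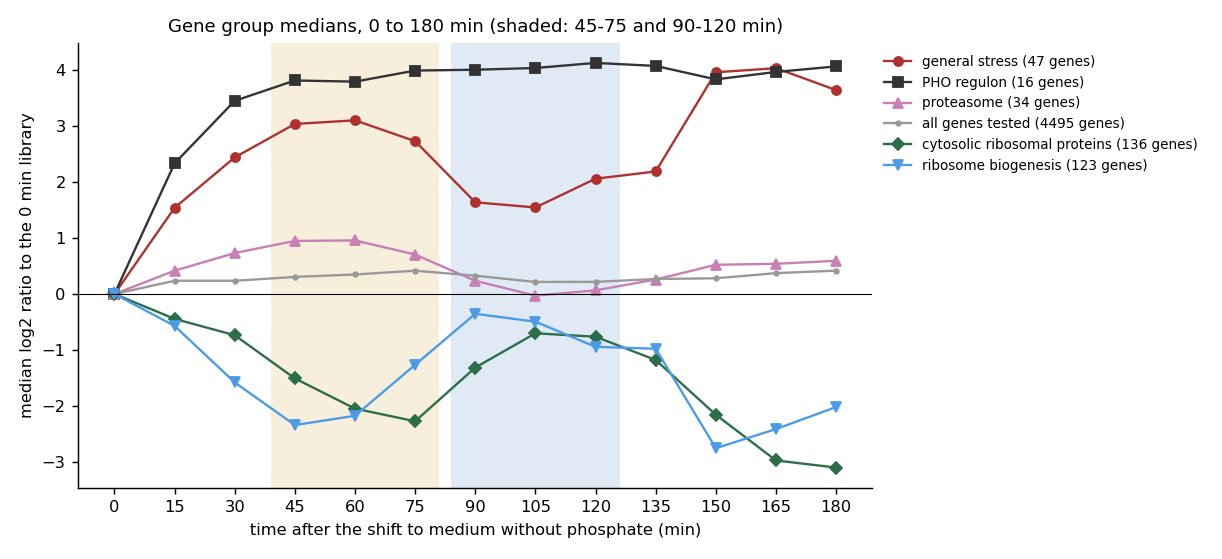
Median log2 ratio to the 0 min library (y axis) by time without phosphate (x axis, min), 1 library a point, from 0 to 180 min, for 5 gene groups and all genes, over genes with a value in every library but those of 195 and 210 min. Ribosome biogenesis is lowest at 45 min and ribosomal proteins at 75 min within the shaded windows. General stress genes dip at 90 and 105 min, and the median line of the PHO regulon shows no dip there.

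Other parts of the translation apparatus rose less. Of 40 translation factor genes 10 rose (25%, beside 9.06% over all genes) and 0 fell, with a median difference of 0.32. YEF3, elongation factor 3, stood at 11.69, 11.13 and 11.68 and then at 12.34, 12.57 and 12.57 log2 CPM, and rose by 1.00 ± 0.21 (limma adjusted p = 0.0058). GCD10, a subunit of a tRNA methyltransferase, rose by 1.43 ± 0.26, and the initiation factor 3 subunits NIP1 and RPG1 by 0.82 and 0.76. Of 21 aminoacyl-tRNA synthetase genes 5 rose (23.8%, beside the same 9.06%), with a median of 0.31. MES1, the methionyl-tRNA synthetase, rose by 0.73 ± 0.16, and GLN4, the glutaminyl one, by 0.67 ± 0.19. The counts of 10 and 5 were 3 and 1 without the 60 min library, 3 and 0 without the 105 min library, and 0 and 0 in the fit of 4 windows, and the synthetase count was 2 without the 90 min library. Of 70 genes listed by name as mitochondrial ribosomal proteins 0 rose and 1 fell (1.43%, beside 10.1% over all genes), and their median difference was -0.27. The 1 was MRP8, by -0.87 ± 0.16, whose place on the list rests on its name alone. That count was 2 without the 75 min library and 3 without the 90 min library.

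The single largest rise was that of AAH1, adenine deaminase, which turns adenine into hypoxanthine on the way to guanine nucleotides. It stood at 3.55, 4.98 and 6.38 log2 CPM at 45, 60 and 75 min and at 7.48, 7.79 and 6.72 at 90, 105 and 120 min, against 8.20 at 0 min. The difference was 2.36 ± 0.51, or 5.12-fold (limma adjusted p = 0.0063), and the windows did not overlap, with 0.34 between the 75 and 120 min libraries. Of 28 genes of guanine and adenine nucleotide synthesis 9 rose and 2 fell, with a median difference of 0.17. Those shares were 32.1% and 7.14%, beside 9.06% and 10.1% over all genes. GUA1, GMP synthetase, rose by 1.18 ± 0.21, APT1, adenine phosphoribosyltransferase, by 1.01 ± 0.17, and PRS3, of the enzyme that makes phosphoribosyl pyrophosphate, by 1.00 ± 0.17. Of these, APT1 and PRS3 were called in the fit of 4 windows. Without the 60 or the 105 min library 0 of the list were called lower, and without the 90 min library 3.

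Histone genes rose: 7 of 11 were called higher (63.6%, beside 9.06% over all genes), 0 lower, and the median difference was 0.94. HTA2, an H2A gene, stood at 9.64, 9.74 and 10.13 and then at 10.82, 11.14 and 10.92 log2 CPM, with no overlap, and rose by 1.12 ± 0.18 (limma adjusted p = 0.0018). HTB2, HHF1 and HHT1, for H2B, H4 and H3, rose by 1.14 ± 0.26, 1.12 ± 0.20 and 1.07 ± 0.20. Histone genes come in 2 similar copies of each kind, so reads may be shared between copies. Of the 7 calls, 6 were kept in every omission of 1 library, and the fit of 4 windows called 6 histone genes. The other cell cycle groups held few calls. Of 33 G1/S genes 0 were called in either direction, with a median of 0.10, and without the 75 min library 5 were called higher. Their median level was 5.79, 6.28 and 6.73 log2 CPM at 45, 60 and 75 min and 6.45, 6.155 and 6.04 at 90, 105 and 120 min. The highest earlier value fell at 75 min for 27 of the 33 and the highest later one at 90 min for 28. The window means do not show this rise and fall. Of 22 G2/M genes 3 rose (13.6%, beside 9.06% over all genes). They were the mitotic cyclin genes CLB1 (0.83 ± 0.23) and CLB3 (0.75 ± 0.23) and the phosphatase gene PHO3 (0.98 ± 0.22). Of 16 M/G1 genes 1 fell (6.25%, beside 10.1% over all genes), RME1, a repressor of meiosis (-0.89 ± 0.22). PHO3 is a close relative of PHO5, and reads may be shared. The 3 G2/M calls were 1 without the 45 or the 120 min library and 0 without the 60 or the 105 min library, as was the M/G1 call without either of the latter.

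**Figure D3:**
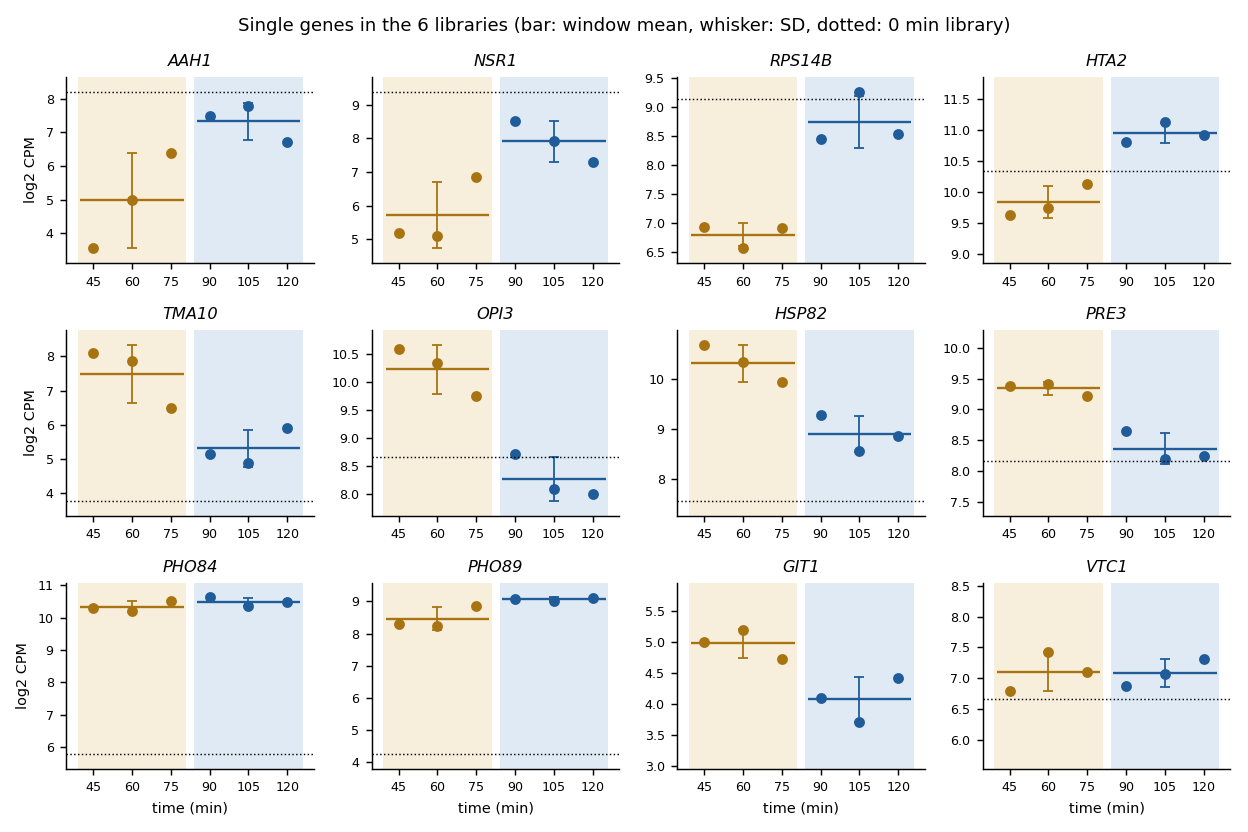
Levels of 12 genes (y axis, log2 CPM) in the libraries of 45 to 75 min (brown) and 90 to 120 min (blue), with the mean (bar) and SD (whisker) of the 3 libraries and the 0 min library (dotted). Axes span at least 3 log2 units. GIT1 has no value at 0 min. AAH1, NSR1, RPS14B and HTA2 lie higher in the later window, TMA10, OPI3, HSP82, PRE3 and GIT1 lower, and PHO84 and VTC1 overlap.

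General stress genes fell together. Of 49 tested, 44 fell (89.8%, beside 10.1% over all genes) and 0 rose. Every later value lay below every earlier one in 44, beside 1073 of 5000 over all genes. The median difference of the 49 genes was -1.28, or 2.43-fold lower. Their median level was 7.94, 7.82 and 7.19 log2 CPM at 45, 60 and 75 min and 6.0, 6.07 and 6.61 at 90, 105 and 120 min. TMA10, a small ribosome-associated stress protein, had the largest fall of all genes. It stood at 8.09, 7.85 and 6.50 and then at 5.13, 4.88 and 5.92 log2 CPM, a difference of -2.17 ± 0.36 (limma adjusted p = 0.0018), with 0.58 between the 75 and 120 min libraries. HSP12, a membrane-protecting small protein and the most abundant of these genes, stood at 11.73, 12.48 and 11.95 and then at 10.92, 9.95 and 9.72, a difference of -1.85 ± 0.29. RTC3, YGP1 (a secreted glycoprotein) and NQM1 (a transaldolase) differed by -2.06, -1.97 and -1.97, and ALD3, an aldehyde dehydrogenase, and RGI1, named for respiratory growth, by -1.80 and -1.79. NQM1 stood at 3.25 log2 CPM at 120 min, near the floor of 2.99 in that library. As a group the fall was partial, although the later mean of YGP1 lay near its 0 min value (4.34 and 4.31 log2 CPM): relative to the 0 min library the group's median was 2.95 ± 0.20 (SD of the 3 library medians) at 45 to 75 min and 1.75 ± 0.27 at 90 to 120 min. Between 30 and 46 of the genes were called lower in each omission of 1 library, and 4 in the fit of 4 windows.

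Of 18 genes of trehalose and glycogen metabolism, the storage carbohydrates of starved yeast, 13 fell and 0 rose, with a median of -1.04. The share that fell was 72.2%, beside 10.1% over all genes. GPH1, glycogen phosphorylase, stood at 8.31, 8.78 and 8.05 and then at 6.63, 6.53 and 7.35 log2 CPM, a difference of -1.54 ± 0.24 (limma adjusted p = 0.0014). PGM2, phosphoglucomutase, UGP1, which makes UDP-glucose, and TSL1, of trehalose synthase, differed by -1.51, -1.25 and -1.32. PGM2 and TSL1 are also among the general stress genes above. The list was called lower for 7 genes without the 45 min library, 6 without the 60 min library, 8 without the 90 min library, 6 without the 105 min library and 0 in the fit of 4 windows.

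Of 27 Hsf1 chaperone genes 17 fell (63.0%, beside 10.1% over all genes) and 0 rose, with a median of -0.80. HSP82, the inducible Hsp90, stood at 10.67, 10.33 and 9.94 and then at 9.29, 8.57 and 8.86 log2 CPM, with no overlap, and differed by -1.41 ± 0.22 (limma adjusted p = 0.0015). SSA4, a stress-inducible Hsp70, HSP42, a small heat shock protein, and STI1, a co-chaperone, differed by -1.52, -1.49 and -1.28. HSP42 is also among the general stress genes above. Here 9 genes were called without the 105 min library, and 0 in the fit of 4 windows.

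The proteasome had the highest share of calls among the 31 lists: 33 of 34 subunit genes fell (97.1%, beside 10.1% over all genes). In as many, beside 1073 of all 5000 genes, every later value of a subunit gene lay below every earlier one. The differences ran only from -0.98 to -0.33, with a median of -0.73, or 1.66-fold lower, and 0 genes reached 2-fold. The median level was 8.96, 8.90 and 8.72 log2 CPM and then 8.26, 7.98 and 8.04. PRE3, a catalytic subunit of the core particle, stood at 9.38, 9.42 and 9.22 and then at 8.65, 8.20 and 8.25 log2 CPM, a difference of -0.98 ± 0.16 (limma adjusted p = 0.0019). PRE10 and PRE5, also of the core, and RPT2, an ATPase of the regulatory particle, differed by -0.89, -0.88 and -0.89. Relative to 0 min the group stood at 0.87 ± 0.14 (SD of the 3 library medians) in the earlier window and at 0.09 ± 0.13 in the later one. The fit of 4 windows called 12 of the 34, and 19 were called without the 60 min library and 18 without the 105 min library.

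**Figure D4:**
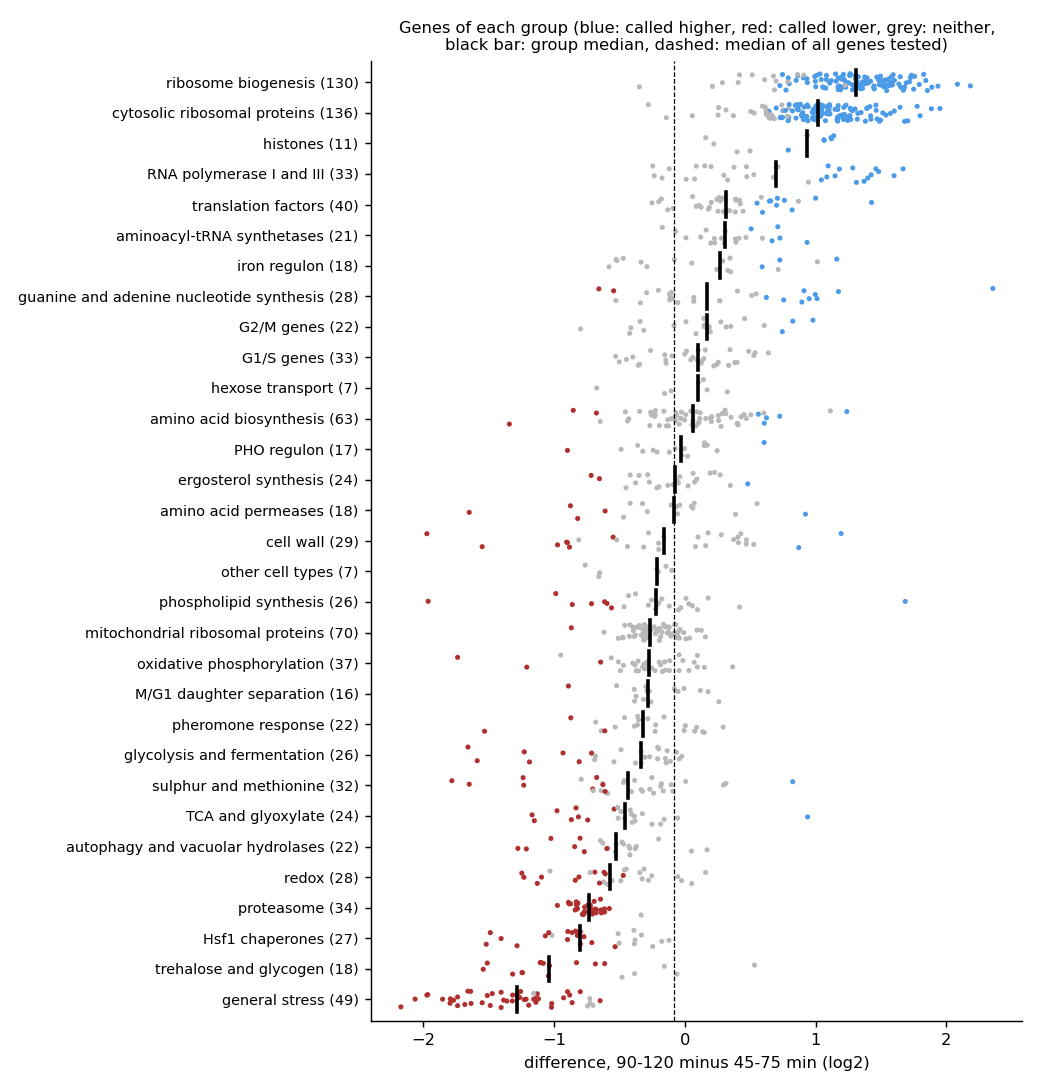
Difference between the windows (x axis, log2) for every tested gene of each group (rows, number of genes in brackets), coloured by call. Group medians run from 1.31 for ribosome biogenesis to -1.28 for general stress, and the proteasome genes lie in a narrow band around -0.73.

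Smaller numbers of genes fell in several metabolic groups, beside 10.1% over all genes. These lists overlap with others: CTT1, HXK1, GLK1 and CYC7, named below, are also among the general stress genes above. Of 28 redox genes 11 fell (39.3%), with a median of -0.58: PRX1, a mitochondrial peroxiredoxin, by -1.23 ± 0.18 and CTT1, the cytosolic catalase, by -1.13 ± 0.26. Of 22 autophagy and vacuolar hydrolase genes 7 fell, among them ATG8, the autophagosome ubiquitin-like protein (-1.28 ± 0.23), and LAP4, a vacuolar aminopeptidase (-1.21 ± 0.18). Of 24 TCA and glyoxylate genes 8 fell, among them PYC1, pyruvate carboxylase, by -1.17 ± 0.18. Of 26 glycolysis and fermentation genes 7 fell, and the examples are the glucose-repressed HXK1, hexokinase 1 (-1.66 ± 0.21), GLK1, glucokinase (-1.23 ± 0.21), and ADH2, the ethanol-consuming alcohol dehydrogenase (-1.59 ± 0.32). ADH2 stood at 3.065, 2.885 and 2.996 log2 CPM at 90, 105 and 120 min, where the floors were 2.133, 2.5 and 2.989. The size of its fall thus rests on values near the floor. HXK1 overlaps the entry YFR052C-A, whose values are nearly the same, and reads of the pair cannot be told apart. Of 37 oxidative phosphorylation genes 3 fell, a share of 8.11% that is below that over all genes, including CYC7, the second cytochrome c (-1.74 ± 0.37), and of 7 hexose transport genes none was called. Without the 60 min library 1 redox gene and 3 autophagy genes were called lower, and without the 105 min library 4 and 3, with 5 genes of the TCA list and 4 of glycolysis. Without the 120 min library 7 redox and 6 oxidative phosphorylation genes were called, and without the 60 min library 1 of the latter. The fit of 4 windows called 0 redox, 0 oxidative phosphorylation, 1 autophagy, 1 TCA and 2 glycolysis genes lower, LAP4, PYC1 and ADH2 among them, and not PRX1, CTT1, ATG8, HXK1, GLK1 or CYC7.

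Of 32 sulphur and methionine genes 8 fell and 1 rose, with a median of -0.44. Those shares were 25% and 3.1%, beside 10.1% and 9.06% over all genes. MET28, a cofactor of Met4 and Cbf1, the activators of the sulphur genes, stood at 5.07, 5.85 and 4.56 and then at 3.57, 3.08 and 3.48 log2 CPM, with no overlap, a difference of -1.78 ± 0.34 (limma adjusted p = 0.0036). SAM2, S-adenosylmethionine synthetase, fell by 1.23 on the log2 scale and MUP3, a methionine permease, by 1.65. MUP3 stood at 2.51 log2 CPM at 90 min, near the floor of 2.13 in that library. Without the 45 min library 12 of the group were called lower, without the 60 min library 2 and without the 105 min library 4. Of 26 phospholipid synthesis genes 7 fell and 1 rose (26.9% and 3.85%, beside the same 10.1% and 9.06%). OPI3, which makes phosphatidylcholine by methylation, stood at 10.60, 10.35 and 9.75 and then at 8.72, 8.09 and 8.0 log2 CPM, a difference of -1.96 ± 0.23 (adjusted p = 0.0010), and CHO2, the methyltransferase before it in the pathway, differed by -0.86 ± 0.18. URA7, CTP synthase, rose by 1.69 ± 0.34. The 7 phospholipid genes called lower were 3 without the 45 min library, 2 without the 60 min library, 4 without the 90 min library and 2 without the 105 min library. In the fit of 4 windows OPI3 was the 1 phospholipid gene called, CHO2 and URA7 were not, and the 3 sulphur genes called were MET28, SAM2 and MUP3.

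In the other lists shares of calls stood beside 9.06% higher and 10.1% lower over all genes. Of 63 amino acid biosynthesis genes 5 rose and 3 fell (7.94% and 4.76%, both below those shares), BAT2, the cytosolic branched-chain aminotransferase, by -1.34 ± 0.19 and LEU9, an isopropylmalate synthase, in the other direction by 1.24 ± 0.25. Of 18 iron regulon genes 3 rose (16.7%) and 0 fell, FET3, the ferroxidase of high-affinity iron uptake, by 1.16 ± 0.19 and its partner permease FTR1 by 0.73 ± 0.17. Of 24 ergosterol genes 1 rose and 2 fell (4.17% and 8.33%), and of 22 pheromone response genes 0 and 3 (13.6% lower). Of 29 cell wall genes 2 rose and 7 fell (6.90% and 24.1%), and of 18 amino acid permease genes 1 and 4 (5.56% and 22.2%). None of the 7 genes tested from the list of other cell types was called. Counts this small moved with the library left out. Without the 60 min library 1 amino acid biosynthesis gene was called higher and 1 lower, 1 iron gene higher, and 3 cell wall, 1 pheromone response, 1 ergosterol and 0 permease genes lower. Without the 105 min library 1 amino acid biosynthesis gene was called in each direction, 1 iron gene higher, and 1 cell wall, 1 pheromone response, 0 ergosterol and 1 permease genes lower. Without the 75 min library 12 amino acid biosynthesis and 6 cell wall genes were called higher.

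The PHO regulon did not share the change. Of 17 of its genes tested, 1 rose and 1 fell, shares of 5.88% each beside 9.06% and 10.1% over all genes, and the median difference was -0.03. PHO84, the high-affinity phosphate transporter, stood at 10.29, 10.20 and 10.52 and then at 10.62, 10.36 and 10.47 log2 CPM, overlapping, with a difference of 0.15 ± 0.17 (limma adjusted p = 0.60), against 5.80 at 0 min. PHO5, the main secreted acid phosphatase, stood at 11.85, 12.16 and 12.35 and then at 11.97, 12.04 and 12.41, a difference of 0.02 ± 0.21. PHO89, the sodium-coupled phosphate transporter, stood at 8.29, 8.24 and 8.87 and then at 9.07, 9.02 and 9.12 and rose by 0.61 ± 0.18 (adjusted p = 0.031). GIT1, the permease of glycerophosphodiesters, stood at 5.0, 5.19 and 4.73 and then at 4.10, 3.70 and 4.42 and fell by 0.90 on the log2 scale (SE 0.28, adjusted p = 0.040). Neither call held in every omission of 1 library or in the fit of 4 windows. The polyphosphate genes VTC2, VTC3 and VTC4 differed by -0.03, 0.15 and -0.02 and the signalling inhibitor PHO81 by -0.12, none of them called. PHM8, a nucleotide phosphatase, PHO8, the vacuolar alkaline phosphatase, and PHO12, an acid phosphatase, had every later value below every earlier one at differences of -0.49, -0.32 and -0.36, but were not called (adjusted p of 0.060, 0.21 and 0.22). With GIT1, that held for 4 of 17 genes, beside 1073 of 5000 over all genes. PHO11 and PHO12 are near-identical copies, so their reads may be shared. GIT1 has no value at 0 min. Over the 16 other genes the median relative to 0 min was 3.86 ± 0.11 (SD of the 3 library medians) in the earlier window. It was 4.05 ± 0.06 in the later one. Gene by gene, the later mean was lower for 11 of the 17 and higher for 6. From 75 to 90 min 10 of the 17 went down, with a median step of -0.23, and from 90 to 105 min 11 did, with -0.09. From 105 to 120 min 13 of 17 went up, with a median step of 0.10. These steps compare single libraries.

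The motifs named above were counted on both strands in the 300 bases that end 100 bases before the start codon of 4882 of the 5000 genes, with overlapping matches of different motifs counted for each, and divergent genes can share part of a window. PAC and RRPE stood together in 205 windows (4.20%), and 105 of those 205 genes rose (51.2%) against 7.36% of the genes without the pair, while 2.44% fell. Among the 130 ribosome biogenesis genes 51.5% held both. The stress element AGGGG stood in 1175 windows (24.1%), and 20.6% of these genes fell against 6.83% of the rest. With 2 copies 36.4% of 165 genes fell and with 3 or more 54.3% of 46. It was found for 42 of 49 general stress genes and 16 of 18 trehalose and glycogen genes. PACE (GGTGGCAAA) stood in 64 windows, and 41 of those genes fell (64.1%) against 9.42% of the others. The heat shock element stood in 57 windows, of which 16 genes fell (28.1%, against 9.93% without it) and 6 rose, and 10 of the 16 are on the Hsf1 chaperone list. The Rap1 core stood in 85 windows, 25 of them of ribosomal protein genes, and 27 genes rose (31.8%, against 8.80% without it). The Pho4 site CACGTG stood in 11 of 17 PHO regulon windows and 4.75% of all. It also stood in 19 of 32 sulphur and methionine windows, so it is not particular to the PHO regulon, and 221 genes with it are outside that list. Of the 232 genes with it 10 rose and 28 fell (4.31% and 12.1%), beside 9.06% and 10.1% over all genes tested, and of the 496 genes with CACGTT 8.06% rose and 10.1% fell. These counts describe letters in a window, and a match is not a bound site.

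**Figure D5:**
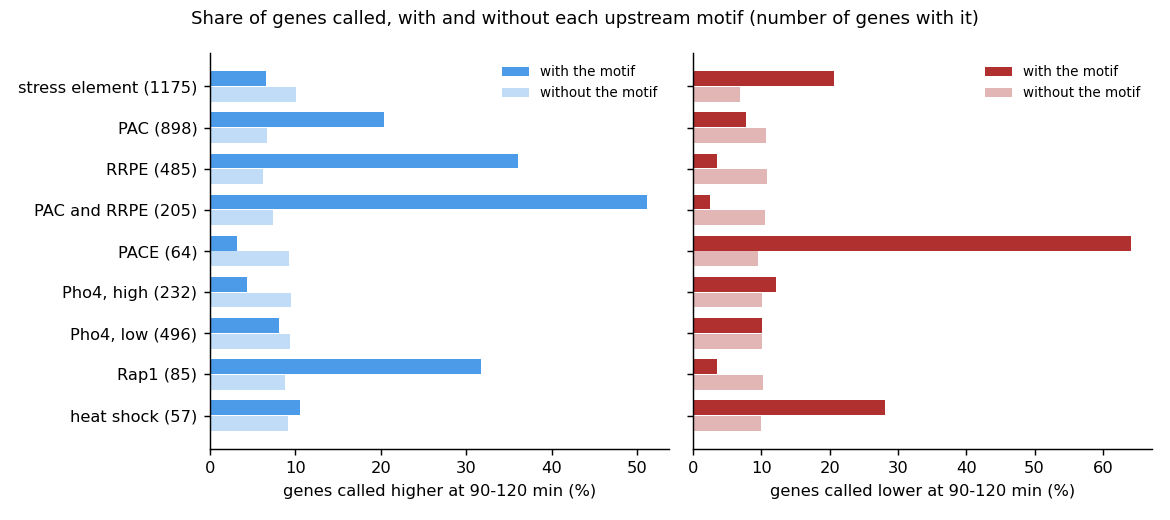
Share of genes called higher (left, %) and lower (right, %) at 90 to 120 min, with each upstream motif (dark bars, number of genes in brackets) and without it (pale bars). The pair of PAC and RRPE stands out on the left at 51.2% and PACE on the right at 64.1%, while both Pho4 sites lie close to their pale bars in the panel of lower genes.

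The ribosome and stress groups turned back after the later window, and the proteasome and histone groups did so in part. Relative to 0 min the ribosome biogenesis median was -1.92 ± 0.58 (SD of 3 library medians) at 45 to 75 min, -0.60 ± 0.31 at 90 to 120 min, -0.98 at 135 min and -2.75 at 150 min. The corresponding values of the ribosomal protein genes were -1.94 ± 0.39, -0.92 ± 0.34, -1.18 and -2.15, and those of the general stress genes 2.95 ± 0.20, 1.75 ± 0.27, 2.19 and 3.96. Within the later window the 120 min library already lay nearer the earlier levels for biogenesis and stress genes: from 105 to 120 min 123 of 130 biogenesis genes went down and 45 of 49 stress genes went up. From 135 to 150 min, 127 of 128 biogenesis genes and 136 of 136 ribosomal protein genes went down, and 49 of 49 stress genes went up. The proteasome median went from 0.87 ± 0.14 to 0.09 ± 0.13, then 0.26 at 135 min and 0.52 to 0.59 at 150 to 180 min, below that of the earlier window. Histone medians were -0.33 ± 0.36, 0.53 ± 0.11 and 0.32, and 0.11 to 0.18 at 150 to 180 min, above that of the earlier window. These later times are single libraries.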

How the data were processed

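Per the labels, RNA was extracted from frozen cells in plates, made into cDNA and sequenced on an Illumina instrument, and per the submitters' processing notes reads were aligned with Bowtie to build R64. The counting program, annotation and strand setting are not given in the sources used here. The authors deposited 1 log2 value per gene and library. Raised back, the 6 libraries each sum to about 1000000, so the deposited log2 values were taken as log2 CPM, with no pseudocount added. The design text mentions scaling to the 0 min sample, but the 0 min column holds levels like the others. Of 6701 entries, 51 without a name and 2 that share 1 name were left out.

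Windows were compared with limma 3.58.1 in R 4.3.3 (lmFit, eBayes with a mean-variance trend, two-sided, Benjamini-Hochberg over 5000 genes). It was tested on simulated data with independent noise in each library. That simulation cannot show how change over time within a window affects the calls. If the floor is 10 reads, 94.1% to 96.9% of low values per library are whole reads within 0.02, but a unit 0.5 times as large gives 96.0% to 98.1%, so the size of 1 read is not settled and no count test was run. The 6 libraries, the lists, the motifs and the rule for named genes were chosen with earlier results of these data known. The lists and motifs come from textbook knowledge, and a gene can be on more than 1 list. The cytosolic and mitochondrial ribosomal protein lists were made from gene names. Named genes are the 15 largest rises and 15 largest falls among called genes whose windows do not overlap, every PHO regulon gene, VTC1 and, per further list, its 4 called genes of largest difference at most, or, with 0 called, its 2 genes of largest difference. Upstream windows were read for 4882 genes, of 4883 matched by name. Leaving out the 75 and 90 min libraries and summing ribosomal protein copies were added after seeing the data. The result for 1 gene is not reported here.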

Additional observations from a re-analysis of the deposited data

How the results depend on the processing

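Counts of called genes moved with the samples in the fit. Against 453 higher and 507 lower, 27 and 69 were called in a fit of 4 windows, and 277 and 160 when a 2-fold difference was also required. Leaving out 1 library at a time gave 194 to 605 genes higher and 193 to 574 lower, and 344 of the 960 genes were called in every omission. Centring, quantile normalization, a minimum mean of 5, values in at least 2 libraries of each window, robust variance, no trend, a common slope within windows and an adjusted p under 0.1 kept the counts within 1.5 times. Without the 75 and 90 min libraries together, an alternative chosen after seeing the data, 266 genes were at least 2-fold lower without overlap, against 160. The cause of these shifts was not tested. Each omission leaves fewer libraries. Counts went up without the 75 min library (605 higher, 574 lower) and down without the 60 min library (194 and 194). Of 342 medians of gene lists recomputed, 328 moved by less than the spread between libraries and 13 had the opposite sign, with medians near 0. Larger moves were these. Leaving out 1 library at a time gave medians of -0.85 to -0.63 for Hsf1 chaperones, -0.18 to 0.0007 for ergosterol genes, -0.61 to -0.51 for redox genes, -0.48 to -0.027 for M/G1 genes, -0.31 to 0.039 for cell wall genes and -0.29 to -0.22 for mitochondrial ribosomal proteins, which quantile normalization put at -0.22. Without the 75 and 90 min libraries the medians were -0.91 for Hsf1 chaperones, -0.020 for ergosterol genes, -0.91 for the proteasome, -0.68 for redox genes, -0.24 for permeases and -0.62 for other cell types. Over the 133 named genes, being called or not stayed as it was in 1954 gene and setting pairs, and a call was lost in 281 and gained in 6. The number reversed was 0, a result for which these settings leave little room. No paired analysis was possible because each time point has 1 library, and replicate numbers only order the times. Genes near the floor cannot be compared at this depth.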

Other observations

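Genes in none of the lists made up 164 of the 453 that rose and 339 of the 507 that fell. Among the larger of these rises, beside CGR1 and TRM1, were FAF1, of small subunit assembly (1.71), LIA1, the deoxyhypusine hydroxylase that modifies translation factor eIF5A (1.66), JJJ3, of diphthamide synthesis on elongation factor 2 (1.59), MIS1, a mitochondrial enzyme of folate-bound one-carbon units (1.58), and RKI1, of the pentose phosphate pathway (1.56). Among the larger falls, beside YJL163C and YFR017C, were GCY1, a glycerol dehydrogenase (-1.64), AAD16, of the aryl-alcohol dehydrogenase family (-1.62), and YPS6, an aspartyl protease of the cell surface (-1.54). Each of these had an adjusted p under 0.05 by limma, and their names were picked after the values were seen.

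Among genes with the PACE motif, 21 were proteasome subunits on the list, all 21 called lower, and 43 were not. Of those 43, 20 fell and 2 rose, with a median difference of -0.53, against 9.2% lower among 4805 genes with neither the motif nor a place on the list. CDC48, the ATPase that extracts ubiquitylated proteins (-0.89), UBA1, the ubiquitin-activating enzyme, UBI4, polyubiquitin, ECM29, a proteasome-associated protein, and PIM1, a mitochondrial protease (-0.78), were among the 20. Of 129 genes with PAC and RRPE outside the ribosome biogenesis and polymerase lists, 35 rose (27.1%) and 5 fell, against 6.21% higher among 4590 such genes without the pair. Of 1114 genes with the stress element outside the stress, storage and chaperone lists, 190 fell (17.1%), against 6.44% of 3680 without it. Of 60 genes with the Rap1 core that are not ribosomal protein genes 8 rose (13.3%) and 3 fell (5%), with a median difference of -0.04, against 7.06% and 10.5% of 4686 genes without it. Of 43 genes with the heat shock element outside the Hsf1 chaperone list 6 rose and 6 fell, with a median of -0.07.

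Some genes crossed the floor between the windows. TOD6, which encodes a repressor that binds the PAC element, was listed in all 3 later libraries, at 5.41, 4.31 and 3.75 log2 CPM, and in none of the 3 earlier ones, and stood at 5.87 at 0 min. RPS28B did so as well (3.90, 3.43 and 3.57). NDD1, an activator of G2/M genes, was listed at 2.51, 3.27 and 3.57 in the later libraries alone, close to their floors. In all, 11 genes were listed in the later libraries alone. The reverse held for 2 genes, AGP2, a plasma membrane transporter (4.02, 3.40 and 3.88 log2 CPM at 45, 60 and 75 min), and REC8, a meiotic cohesin subunit (3.18, 3.75 and 3.26). A gene under the floor has no value, so no fold is given. The floors differed, at 2.42, 3.26 and 2.88 log2 CPM at 45, 60 and 75 min and 2.13, 2.50 and 2.99 at 90, 105 and 120 min. HIT1, of the 11 genes, stood at 2.98, 2.64 and 3.13 in the later libraries, under the 60 min floor. How far depth gives the counts of 11 and 2 was not tested.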
